A study of Rattus norvegicus with 15 samples.

Results

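Hox genes encode homeodomain transcription factors, and 31 of them were followed through 5 life stages of rat knee articular cartilage. Members were all probe sets whose single annotated gene symbol is Hox, a cluster letter from a to d and a number. Each of the 31 genes had 1 such probe set, of 36685 probe sets and 18166 singly named genes on the array. RefSeq (assembly GRCr8) lists 39 Hox genes in the rat, and the other 8 were not analysed here. The members comprised 8 of 11 genes of cluster A on chromosome 4, 10 of 10 of cluster B on chromosome 10, 7 of 9 of cluster C on chromosome 7 and 6 of 9 of cluster D on chromosome 3. By paralogue number, 6 were anterior (1 to 3), 13 central (4 to 8) and 12 posterior (9 to 13).

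The order of Hox genes along each chromosome matches the order in which they are used along the body axis of the embryo, with anterior genes at one end of a cluster and posterior genes at the other. Polycomb complexes keep the clusters silent and Trithorax complexes keep them active, while retinoic acid switches on anterior genes early. In the hindlimb, posterior genes of clusters A and D pattern the segments from thigh to toes. Genes of cluster C, Hoxc10 among them, mark hindlimb over forelimb. Cells from adult limbs and joints are known to keep part of this pattern as positional memory. TALE homeodomain proteins of the Meis, Pbx and Pknox families bind DNA together with Hox proteins.

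The cartilage was taken from the right knees of rats of the Sprague-Dawley strain, and its RNA was measured on Affymetrix RaGene 2.0 ST arrays. Each of 5 stages had 3 arrays: newborn rats are T0, youth is T1 and adult is T2, and the elderly rats are divided into an early stage, T3, and a latter stage, T4. The labels call the arrays biological replicates and give no age in days, no sex and no batch, and they name no genetic change or treatment. The source name of replicate 3 of T1 says adult where its title and stage say youth, so each comparison was also run with it as an adult array. Values are log2 signals as the authors deposited them, so a difference of 1 is a doubling.

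The arrays were not alike over the stages. The SD over all probe sets of an array was 2.00 to 2.05 over the stages up to T2, 1.83 to 1.97 at T3 and 1.48 to 1.71 at T4. Olfactory receptor genes, which work in the nose and serve here as 1185 genes with little reason to be transcribed in cartilage, had array medians of 2.84 to 2.96 at T2, 3.00 to 3.41 at T3 and 3.57 to 4.38 at T4. The median of 56 cytosolic ribosomal protein genes was 9.72 to 9.76 at T2 and 6.62 to 9.09 at T4, with replicate 1 of T4 the farthest from the rest. Cartilage markers were present from T0 to T2 and low at T4: Col2a1, the chain of type II collagen, read 12.36, 12.30 and 12.41 at T0, 12.34, 11.40 and 11.99 at T2, and 7.10, 9.70 and 7.20 at T4. The main changes that involve T3 or T4 are therefore also given with each array centred on the median of the olfactory receptor genes.

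**Figure D1:**
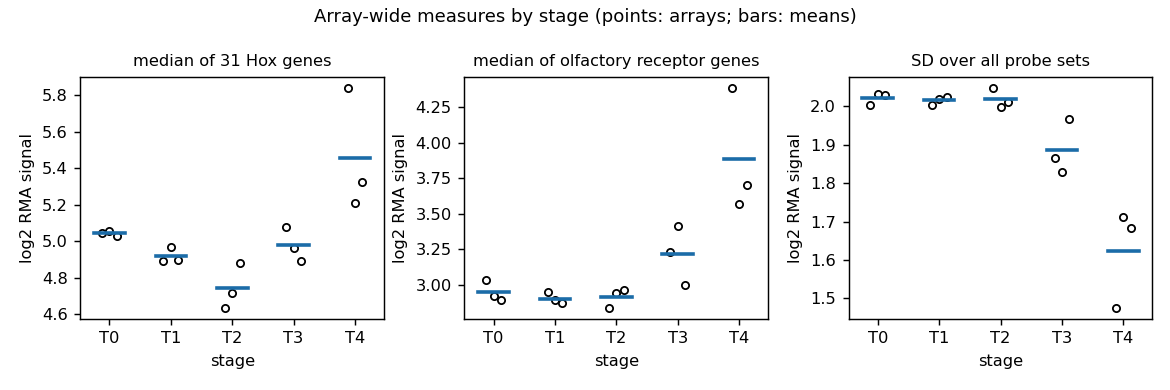
Median log2 signal of the 31 Hox genes (left), median log2 signal of olfactory receptor genes (middle) and SD over all probe sets (right) for each of 15 arrays; points are arrays and bars are stage means. The Hox median is lowest at T2 and highest at T4, and at T4 the olfactory receptor median rises while the SD falls.

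Over all 5 stages, 23 of 31 Hox genes passed limma's moderated F test (Benjamini-Hochberg adjusted p under 0.05), as did 60.1% of all probe sets. The share of Hox genes was thus not far from that of the array. The smallest adjusted p values by limma were 3.22e-05 for Hoxd3, 7.03e-05 for Hoxd1 and 7.44e-05 for Hoxb2. The 8 genes that did not pass were Hoxa2, Hoxa4, Hoxa7, Hoxb5, Hoxb13, Hoxc5, Hoxc8 and Hoxd13. Without the T4 arrays, 8 genes passed: Hoxa5, Hoxa6, Hoxa7, Hoxa9, Hoxa10, Hoxb4, Hoxc10 and Hoxd3. In that fit 25.5% of all probe sets passed. Of these 8 genes, 5 lie side by side in cluster A, which the newborn to adult comparison describes first.

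From newborn to adult (T0 to T2), 2 of 31 Hox genes fell and 0 rose by limma, where 12.7% of all probe sets were called, 6.51% with a rise and 6.19% with a fall. Both were in cluster A: Hoxa9, a posterior gene of limb and trunk, and Hoxa7, a central gene of the trunk. At an unadjusted p under 0.05, 8 Hox genes were lower at T2 and none was higher, where 21.4% of all probe sets differed in either direction. The differences leaned one way: 25 of 31 genes had a lower mean at T2, the median difference was -0.32 on the log2 scale, and the median over all named genes was -0.02. In whole tissue, fewer cells that carry a transcript and less RNA per cell cannot be told apart.

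Cluster A had the lowest median of the 4 clusters. All 8 of its measured genes had a lower mean at T2 than at T0, with a median difference of -0.80. Of the 11 alternatives that changed more than a single array, only some changed the stage means. These were quantile normalization, scaling to a common range, array weights, centring on olfactory receptor genes and placing the youth array named adult at T2. Under each of these the direction held for all 8 cluster A genes. The others, including a filter on the median level that kept 7 of the genes, left the means unchanged, so their direction could not differ. In 7 of the 8 the arrays of T0 and T2 did not overlap, against 36.3% of all probe sets. The median difference was -0.07 in cluster B, -0.32 in cluster C and -0.21 in cluster D.

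Hoxa9 read 6.04, 7.0 and 6.36 at T0, 6.23, 5.78 and 5.85 at T1, and 5.08, 5.25 and 5.0 at T2. All adult arrays lay below all newborn and all youth arrays. The fall from T0 to T2 was 2.56-fold, a log2 difference of -1.36 (SE 0.24, 95% interval -1.86 to -0.85, adjusted p = 0.001 by limma). The call held in all 26 alternatives, with differences from -1.57 to -1.09. The deposited values were 5.32, 5.18 and 5.63 at T3 and 5.80, 5.65 and 5.78 at T4. The difference from T2 to T4 was 0.63 as deposited and -0.34, not called, with arrays centred on the olfactory receptor genes. The direction after T2 thus differed with and without this centring.

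Hoxa7 read 6.69, 6.38 and 6.38 at T0, 5.40, 5.93 and 5.63 at T1, and 5.63, 5.02 and 5.49 at T2. Newborn arrays lay above all youth and adult arrays, while those of T1 and T2 overlapped. The difference from T0 to T2 was -1.10 (SE 0.34, 95% interval -1.82 to -0.38, adjusted p = 0.045 by limma), a 2.14-fold fall. This call was near the threshold and was lost in 13 of 26 alternatives, with an adjusted p by limma of up to 0.194 without replicate 2 of T2. The arrays whose removal ended it were each of T0, T1 and T2 and replicate 1 of T3.

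The neighbours of these genes differed in the same direction without passing the test. Hoxa6 read 6.41, 6.66 and 6.94 at T0 and 5.71, 5.29 and 5.69 at T2, a difference of -1.11 (SE 0.38, adjusted p = 0.0825 by limma). Hoxa5, which patterns the neck and upper trunk, read 6.06, 6.02 and 6.18 at T0, 5.58, 5.97 and 5.92 at T1, and 5.44, 4.98 and 5.46 at T2, a difference from T0 to T2 of -0.79 (SE 0.26, adjusted p = 0.0684 by limma). For both genes the newborn and adult arrays did not overlap. Hoxa10, which patterns the upper segment of the limb, read 5.44, 5.68 and 5.80 at T0 and 4.64, 4.74 and 5.15 at T2, a difference of -0.80 (SE 0.30, adjusted p = 0.108 by limma). Its arrays did not overlap either. At the ends of the cluster the differences were smaller: -0.41 for Hoxa2, -0.27 for Hoxa4 and -0.50 for Hoxa13, a gene of the hand and foot.

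**Figure D2:**
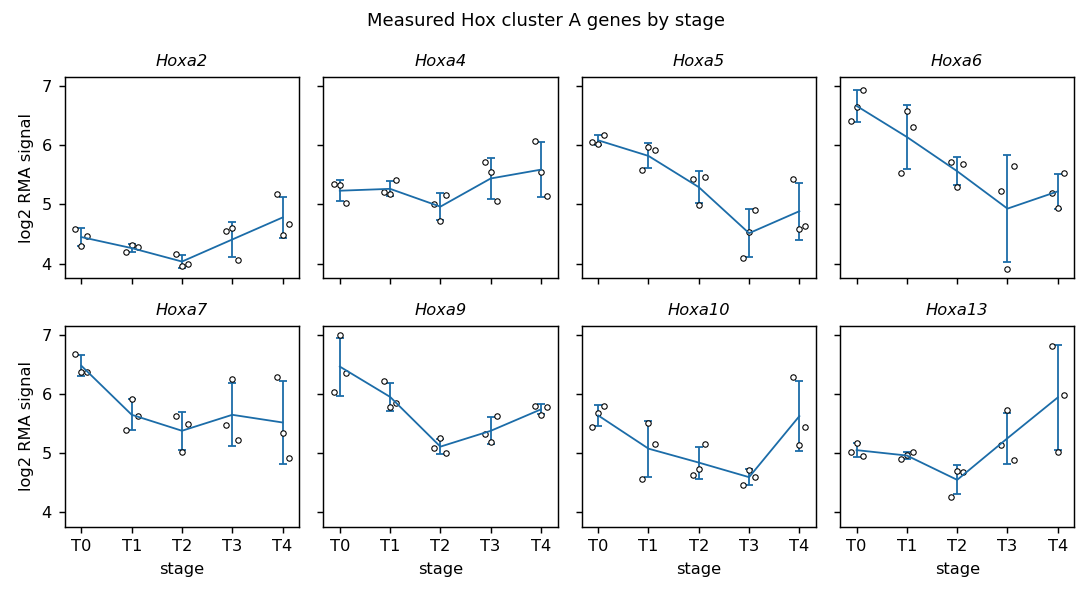
Log2 signal of the 8 measured cluster A genes at each stage; points are arrays, lines join stage means and error bars are the SD of 3 arrays. All 8 means are lower at T2 than at T0, and Hoxa9 falls from 6.47 to 5.11 while Hoxa5 is lowest at T3.

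With the T4 arrays left out of the fit, 6 genes fell from T0 to T2, where 16.9% of all probe sets were called and 8.12% fell. They were Hoxa5 (adjusted p = 0.0249 by limma), Hoxa7, Hoxa9, Hoxa10, Hoxc4 and Hoxc10. With only the arrays of T0 and T2 in the fit, Hoxa6 was added and 7 genes fell, where 19.4% of all probe sets were called and 9.35% fell. The count was 1, Hoxa9 alone, after quantile normalization or with arrays scaled to a common range. Leaving out one array gave 1 call without replicate 2 or 3 of T0, any replicate of T1, or replicate 2 or 3 of T2, and 5 calls without replicate 1 of T4.

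The steps from T0 to T1 and from T1 to T2 were not tested against each other. Hoxa9 had a lower mean after each step, while the difference of Hoxa7 was -0.27 in the second. From T0 to T1 no Hox gene was called by limma, where 7.56% of all probe sets were, 3.54% with a fall. In 10 of 31 the arrays of the stages did not overlap, against 32.3% of all probe sets. At an unadjusted p under 0.05 Hoxa7 (difference -0.83) and Hoxa9 (-0.51) were lower, where 16.4% of all probe sets differed. From T1 to T2 no Hox gene was called, where 0.891% of probe sets were, 0.403% with a fall; 9 of 31 had arrays without overlap, against 22.4% of probe sets. At an unadjusted p under 0.05 only Hoxa9 was lower, by a difference of -0.84 (SE 0.24, adjusted p = 0.15 by limma). At that level 8.52% of all probe sets differed. In that step all 8 cluster A genes again had the lower mean at T2. With the replicate 3 of T1 that is named adult placed among the adult arrays, the same direction held for all 8.

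The RefSeq promoters of the 2 genes that fell are shown because the genes lie close together on the minus strand of chromosome 4 and moved in the same direction. Each runs from 250 bases before to 50 after the annotated start in GRCr8, 5′ to 3′, and capitals mark the motifs found by exact match.
Hoxa7, chr4:82648192-82648491, minus strand: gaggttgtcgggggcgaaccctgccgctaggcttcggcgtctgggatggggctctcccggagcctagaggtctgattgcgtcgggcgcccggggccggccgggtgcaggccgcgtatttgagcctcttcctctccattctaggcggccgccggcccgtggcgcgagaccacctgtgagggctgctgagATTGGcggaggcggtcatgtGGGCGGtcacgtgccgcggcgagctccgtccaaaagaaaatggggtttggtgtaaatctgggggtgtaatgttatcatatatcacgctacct
Hoxa9, chr4:82656999-82657298, minus strand: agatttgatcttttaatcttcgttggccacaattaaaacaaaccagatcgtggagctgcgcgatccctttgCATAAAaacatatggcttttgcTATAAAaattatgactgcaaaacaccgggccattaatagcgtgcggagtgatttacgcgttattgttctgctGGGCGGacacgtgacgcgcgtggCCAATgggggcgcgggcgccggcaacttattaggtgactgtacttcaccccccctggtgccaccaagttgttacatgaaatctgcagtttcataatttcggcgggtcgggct
The motifs searched, on both strands, were the core promoter element TATAAA, the box CCAAT bound by NF-Y, the box GGGCGG bound by Sp factors, TGACAG bound by Meis and Pknox proteins and TTTATG bound by Cdx proteins. Hoxa7 held CCAAT on the reverse strand at -62 and GGGCGG at -42, counted from the start. Hoxa9 held CCAAT at -62, GGGCGG at -85, TATAAA at -157 and TTTATG on the reverse strand at -179. Among 33469 rat promoters of this length, 37.49% held CCAAT, 33.06% GGGCGG, 14.22% TATAAA, 18.97% TGACAG and 12.68% TTTATG. The table held 16 windows of 15 members, 2 of them for Hoxa10, and of these 16 windows 11 held CCAAT, 8 GGGCGG, 4 TATAAA, 3 TGACAG and 2 TTTATG. The number of CG dinucleotides was 29 in the Hoxa7 window and 21 in the Hoxa9 window, with a median of 21.5 over the 16 windows and 7 over all promoters. A match of letters is a description and does not show that a factor binds.

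Outside cluster A, the largest differences from T0 to T2 were in cluster C. Hoxc10 read 5.0, 5.46 and 4.90 at T0, 4.83, 4.10 and 4.20 at T1, and 4.52, 3.45 and 3.93 at T2. Newborn arrays were all above the youth and adult arrays, and the difference from T0 to T2 was -1.15 (SE 0.36, adjusted p = 0.0523 by limma), just short of the threshold. Hoxc4, a neck gene, read 5.45, 6.01 and 6.06 at T0 and 5.25, 4.91 and 5.16 at T2, with no overlap and a difference of -0.74 (SE 0.25, adjusted p = 0.0741 by limma). In cluster B the paralogue of Hoxa9 did not differ in the same way: Hoxb9 read 4.11, 4.57 and 4.57 at T0 and 4.64, 4.57 and 4.50 at T2, a difference of 0.15 with a 95% interval of -0.37 to 0.67. The interval of Hoxc9, -0.85 to 0.20, also spans 0. Whether Hoxa9 differed from these paralogues was not tested.

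**Figure D3:**
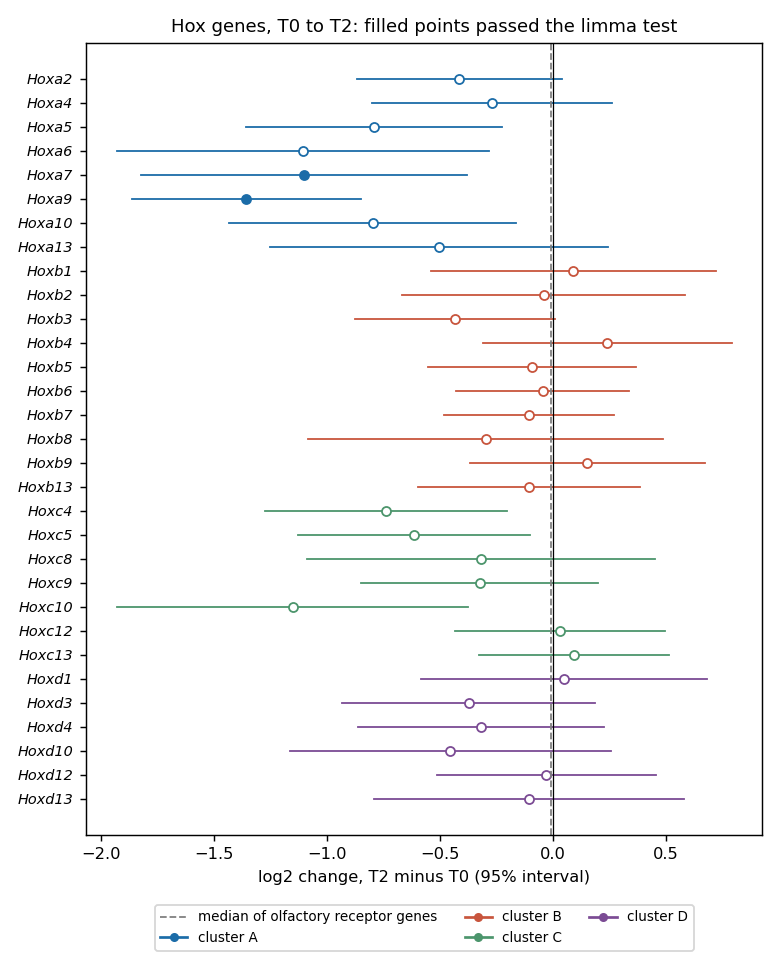
Log2 difference from T0 to T2 for each of 31 Hox genes with its 95% interval, coloured by cluster, filled where limma called it; the dashed line is the median of olfactory receptor genes. The 8 cluster A genes all lie left of 0 and the filled points are Hoxa7 at -1.10 and Hoxa9 at -1.36.

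Of the genes known from hindlimb patterning 9 were measured, and their stage means show how their courses differ. Hoxa9 had means of 6.47 ± 0.49 (SD, n = 3) at T0, 5.11 ± 0.13 at T2 and 5.74 ± 0.08 at T4. Hoxa10 went from 5.64 ± 0.19 to 4.84 ± 0.27 and 5.63 ± 0.60, and Hoxc10 from 5.12 ± 0.30 to 3.97 ± 0.53 and 4.75 ± 0.63. Of these 3, Hoxa9 had its lowest mean at T2, while Hoxa10 (4.59 ± 0.13) and Hoxc10 (3.83 ± 0.49) had theirs at T3. Hoxa13 went from 5.05 ± 0.12 at T0 to 4.55 ± 0.25 at T2 and 5.94 ± 0.90 at T4, and Hoxd10 from 4.47 ± 0.17 to 4.01 ± 0.08 and 5.09 ± 0.82. Hoxc9 went from 6.14 ± 0.06 to 5.82 ± 0.28 and 6.94 ± 0.39. Hoxd12 went from 4.37 ± 0.38 at T0 to 4.34 ± 0.13 in the adult, 4.89 ± 0.12 at T3 and 4.90 ± 0.31 at the latter elderly stage, and its T3 arrays lay above its T2 arrays. Hoxd13, a gene of the digits, had means over the same 4 stages of 3.21 ± 0.07, 3.11 ± 0.26, 3.51 ± 0.52 and 4.04 ± 0.62. Hoxc8 had means of 5.52 ± 0.19 at T0, 4.81 ± 0.09 at T1, 5.20 ± 0.78 at T2 and 4.29 ± 0.63 at T3, and replicate 1 of T2 at 6.11 stood above the other adult arrays at 4.72 and 4.79. With arrays scaled to a common range or after quantile normalization, 27 of 31 Hox genes had a higher mean at T4 than at T2. With arrays centred on the olfactory receptor genes, the direction from T2 to T4 differed among the hindlimb genes. The differences were then -0.34 for Hoxa9, -0.18 for Hoxa10, -0.19 for Hoxc10, -0.41 for Hoxd12 and -0.04 for Hoxd13. They were 0.43 for Hoxa13, 0.11 for Hoxd10 and 0.15 for Hoxc9. None of these 8 was called by limma after centring. Hoxc8, the remaining hindlimb gene, had a difference from T2 to T4 of -0.26 as deposited. It was called and fell after centring, as described below.

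Markers of other tissues moved between the same newborn and adult arrays, where 6.51% of all probe sets rose and 6.19% fell. All 10 measured skeletal muscle markers fell from T0 to T2 (median difference -6.10), and their mean log2 level was 9.96 to 10.50 over the T0 arrays and 4.69 to 5.11 over the T2 arrays. Of 9 blood and marrow markers 7 rose (median 3.97), with mean levels of 4.92 to 5.57 at T0 and 8.69 to 8.84 at T2. Of 11 tendon, ligament and synovial fibroblast markers 7 fell, with mean levels of 9.45 to 9.59 at T0 and 7.24 to 7.93 at T2. Of 11 cartilage markers 8 fell and 1 rose, with mean levels of 9.97 to 10.19 at T0 and 8.55 to 9.14 at T2. Of 8 bone markers 3 rose, of 6 endothelial and pericyte markers 3 fell, of 6 adipocyte markers 1 fell, and 0 of 3 keratinocyte markers were called by limma. The part of these marker changes in the Hox differences was not tested.

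Genes that act with or upstream of the clusters were taken from fixed lists. Of 30 limb patterning genes outside the clusters, 8 fell and 0 rose from T0 to T2 (median -0.39), where 6.19% of all probe sets fell. Gli3, the Hedgehog effector that sets digit number, read 8.09, 7.93 and 7.90 at T0, 6.22, 6.28 and 6.25 at T1, and 5.77, 5.09 and 5.07 at T2, with no overlap between T0 and T2. Its difference from T0 to T2 was -2.66 (SE 0.25, adjusted p = 4.14e-06 by limma). Prrx1, a marker of limb mesenchyme, read 9.69, 9.46 and 9.60 at T0 and 7.59, 6.92 and 6.95 at T2, a difference of -2.43 (SE 0.31). Tbx15, another limb mesenchyme factor, read 8.01, 8.59 and 7.96 at T0 and 6.18, 4.96 and 5.35 at T2. The hindlimb factor Tbx4 fell by 1.32 on the log2 scale, and its regulator Pitx1 had a difference of -0.94 that was not called (adjusted p = 0.0711 by limma).

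Of 18 retinoic acid pathway genes 8 fell and 0 rose from T0 to T2 (median -0.60), where 6.19% of all probe sets fell. Crabp1, which binds retinoic acid in the cytoplasm, read 6.04, 6.23 and 6.86 at T0 and 4.68, 4.79 and 4.48 at T2. Aldh1a2, which makes retinoic acid, read 5.48, 5.75 and 5.09 at T0 and 3.71, 3.56 and 3.91 at T2. Neither gene's arrays overlapped, and the differences were -1.73 (SE 0.23) for Crabp1 and -1.71 (SE 0.26) for Aldh1a2. Centred on the olfactory receptor genes, 4 of the 8 calls in this list were left.

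The partners and chromatin regulators moved less or in both directions, where 6.51% of all probe sets rose and 6.19% fell. Of 8 TALE cofactors 1 fell from T0 to T2: Pknox2 read 6.35, 6.34 and 6.27 at T0 and 5.50, 5.22 and 5.20 at T2, a difference of -1.01 (SE 0.23, adjusted p = 0.00664 by limma), a call that was lost after quantile normalization. Of 24 Polycomb genes 4 rose (Ezh1, Ezh2, Mtf2 and Pcgf5) and 4 fell (Pcgf2, Rnf2, Phc1 and Phc2), with a median of 0.08. Ezh2, the methyltransferase of Polycomb complex 2 and also a gene of dividing cells, read 6.29, 6.39 and 6.67 at T0 and 7.92, 8.34 and 7.95 at T2. Of 10 Trithorax and demethylase genes 2 rose, Rbbp5 and Kdm6b. Of 16 genes that flank the clusters or belong to the ParaHox group, 2 rose and 1 fell. Skap2, next to the anterior end of cluster A and known from blood cells, was among the 2 that rose, by 2.65 on the log2 scale. Snx10, known from osteoclasts, was the other. How far the lower values of cluster A reached along the chromosome was not tested.

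MicroRNA genes lie inside the Hox clusters, and those of the miR-196 family are known to act on Hox transcripts. Their mature RefSeq sequences are shown because the 3 members share a seed (bases 2 to 8, in capitals) but followed different courses.
rno-miR-196a-5p: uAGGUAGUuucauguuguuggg
rno-miR-196b-5p: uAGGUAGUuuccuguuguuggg
rno-miR-196c-5p: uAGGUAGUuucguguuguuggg
From the 5′ end, miR-196b and miR-196a differ by C12A, miR-196b and miR-196c by C12G. Mir196a lies in cluster C, Mir196b in cluster A between Hoxa9 and Hoxa10, and Mir196c in cluster B between Hoxb13 and Hoxb9. A probe set on this array cannot separate a mature microRNA from its precursor or from a longer transcript across it.

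Mir196a read 3.86, 4.04 and 4.02 at T0, 2.78, 3.16 and 3.31 at T1, and 2.86, 3.37 and 3.47 at T2. All newborn arrays lay above all youth and adult arrays. All of these values were below the 95th percentile of olfactory receptor genes, which was 4.80 to 4.92 over the arrays of T0 to T2. It fell from T0 to T1 by 0.89 on the log2 scale (SE 0.23, adjusted p = 0.0242 by limma), a call lost when arrays were centred on olfactory receptor genes (adjusted p = 0.0779 by limma) and without any replicate of T0 or without replicate 1 (adjusted p = 0.135 by limma) or 2 of T1. Mir196b read 4.71, 5.03 and 4.98 at T0, 4.29, 4.46 and 4.29 at T1, and 3.92, 4.25 and 4.25 at T2. Its difference from T0 to T2, -0.77 (SE 0.24, adjusted p = 0.0546 by limma), was in the direction of its neighbours Hoxa9 and Hoxa10 and was not called. Mir196c had a difference from T0 to T2 of -0.03 (SE 0.21).

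From adult to early-stage elderly (T2 to T3) no Hox gene was called by limma, where 0.15% of all probe sets were, 0.0382% with a rise and 0.112% with a fall. In 9 of 31 the arrays did not overlap, against 26.5% of probe sets. At an unadjusted p under 0.05, 5 Hox genes were higher and 2 lower, where 19.8% of all probe sets differed. The median difference was 0.35, with 24 of 31 genes higher, and that of olfactory receptor genes was 0.28. Centred on the latter, the Hox median was 0.05 with 17 higher and 14 lower. The 2 that were lower were Hoxa5 and Hoxc8. Hoxa5 read 4.10, 4.53 and 4.91 at T3, below all adult arrays, a difference of -0.78 (SE 0.26, adjusted p = 0.14 by limma). Hoxc8 had a difference of -0.91 (SE 0.36, adjusted p = 0.19 by limma), and its arrays overlapped. Weighting arrays by their quality gave 8 calls, in which Hoxa5 fell (-1.12) and 7 genes rose. In that fit 28.5% of all probe sets were called, 16.1% with a rise. Replicates 1 to 3 of T3 had weights of 2.49, 0.29 and 0.33, so its weighted means rested mostly on replicate 1. Without replicate 3 of T3 there were 2 calls.

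From early to latter-stage elderly (T3 to T4), 11 of 31 Hox genes rose and 0 fell by limma, where 42.2% of all probe sets were called and 16.5% rose. In 12 of 31 the arrays did not overlap, against 41.6% of probe sets. Centred on the olfactory receptor genes, 3 rose (Hoxb2, Hoxd1 and Hoxd3) and 4 fell (Hoxa4, Hoxa7, Hoxc4 and Hoxd12), where 5.77% of probe sets rose and 52.9% fell. The Hox median from T3 to T4 was 0.53 as deposited and -0.15 centred. Fitting only the arrays of T3 and T4 left 3 calls, where 6.9% of probe sets were called. From adult to latter-stage elderly (T2 to T4), 24 rose and 0 fell, where 56.5% of probe sets were called, 27.2% rose and 29.4% fell. In 23 of 31 the arrays did not overlap, against 62% of probe sets. The median Hox difference from T2 to T4 was 0.79 on the deposited values, but it was -0.18 when arrays were centred on the olfactory receptor genes. The median of the differences of the receptor genes was 0.84. The centring subtracted their array medians, which averaged 2.92 at T2 and 3.89 at T4, a larger shift than 0.84. Of those 1185 receptor genes 652 rose and 14 fell, while 4549 of 18166 named genes rose and 6975 fell. The Hox median thus lay close to that of the receptor genes, and the 4 genes described next rose with and without this centring, under which 6.12% of all probe sets rose.

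Hoxd3, an anterior gene known from the neck vertebrae, read 5.05, 5.33 and 5.17 at T2, 5.76, 6.37 and 5.61 at T3, and 8.03, 6.99 and 7.52 at T4. Stages did not overlap between T2 and T3 or T3 and T4. The rise from T2 to T4 was 5.02-fold, a log2 difference of 2.33 (SE 0.26, adjusted p = 2.63e-05 by limma), and 1.36 with arrays centred on olfactory receptor genes. Hoxd1, the most anterior gene of cluster D, read 3.96, 4.28 and 4.13 at T2, 4.49, 4.96 and 4.30 at T3, and 7.25, 5.94 and 6.04 at T4. At T0 and T1 it lay between 3.94 and 4.20, and no array before T3 exceeded 4.28. The rise from T2 to T4 was 2.29 (SE 0.30, adjusted p = 6.02e-05 by limma), and 1.32 centred.

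Hoxb2, a gene of the hindbrain, read 5.02, 4.89 and 5.25 at T2, 5.34, 5.99 and 5.37 at T3, and 7.95, 6.81 and 7.27 at T4. Its rise from T2 to T4 was 4.89-fold, 2.29 on the log2 scale (SE 0.29, adjusted p = 5.75e-05 by limma), and 1.32 centred. Hoxb1, also of the hindbrain, read 5.38, 5.07 and 5.38 at T2, 6.47, 6.02 and 5.24 at T3, and 7.36, 6.43 and 6.67 at T4. The adult and latter-stage arrays did not overlap, while those of T3 reached into both. Its rise from T2 to T4 was 1.55 (SE 0.29, adjusted p = 0.000675 by limma), and 0.58 centred (adjusted p = 0.0412 by limma). Hoxb2, Hoxd1 and Hoxd3 were called from T2 to T4 and from T3 to T4 in each alternative run, and Hoxb1 from T2 to T4 likewise.

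**Figure D4:**
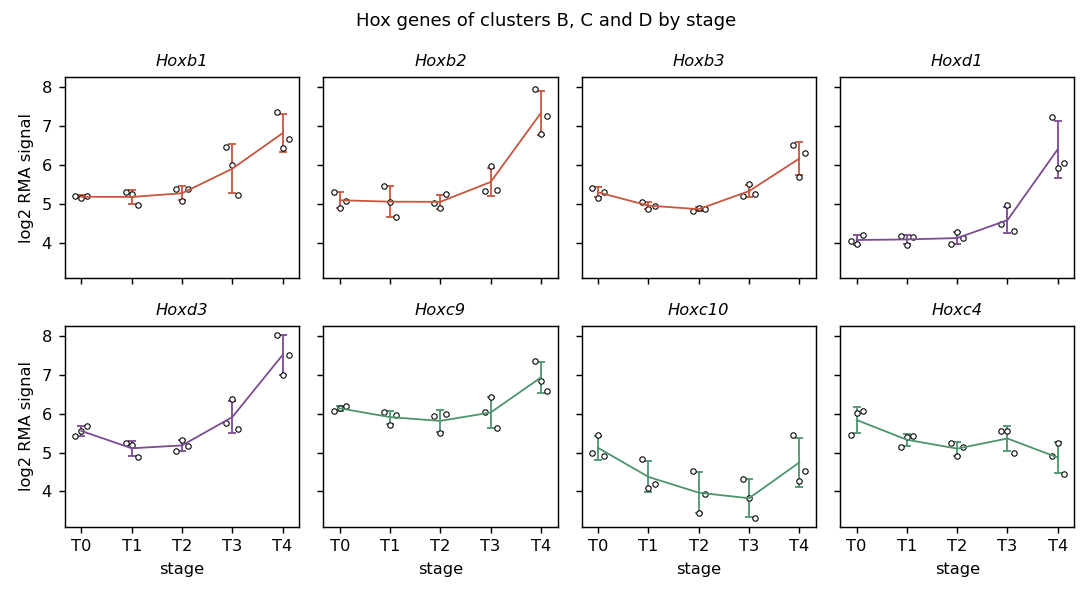
Log2 signal of 8 genes of clusters B, C and D at each stage; points are arrays, lines join stage means and error bars are the SD of 3 arrays. Hoxb2, Hoxd1 and Hoxd3 have means of 5.56 or less from T0 to T2 and reach 7.34, 6.41 and 7.51 at T4, while Hoxc10 has its lowest mean at T3 and Hoxc4 at T4.

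From T3 to T4 alone, Hoxd1 rose by 1.83 (SE 0.30), Hoxb2 by 1.78 (SE 0.29) and Hoxd3 by 1.60 (SE 0.26) on the log2 scale. The adjusted p values by limma were 0.000754, 0.00082 and 0.000783. Centred on the receptor genes the rises were 1.15, 1.11 and 0.93, with adjusted p values by limma of 0.000929, 0.00166 and 0.00212. Hoxd10, a posterior limb gene, read 3.34, 4.29 and 3.96 at T3 and 5.97, 4.36 and 4.96 at T4, with the lowest T4 array only just above the highest of T3. Its rise of 1.23 (SE 0.33, adjusted p = 0.00984 by limma) was 0.56 and not called when arrays were centred on the receptor genes, and it was also lost when only these arrays were fitted. Replicate 1 of T4 was the highest of its stage for Hoxb1, Hoxb2, Hoxd1, Hoxd3 and Hoxd10, and it was also the array whose olfactory receptor median was highest. Its removal left 8 calls from T3 to T4 and 16 from T2 to T4, while removal of replicate 2 of T4 gave 14 from T3 to T4.

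The promoters of the 2 cluster D genes that rose most are shown with the same window, build and motifs.
Hoxd1, chr3:80072791-80073090, plus strand: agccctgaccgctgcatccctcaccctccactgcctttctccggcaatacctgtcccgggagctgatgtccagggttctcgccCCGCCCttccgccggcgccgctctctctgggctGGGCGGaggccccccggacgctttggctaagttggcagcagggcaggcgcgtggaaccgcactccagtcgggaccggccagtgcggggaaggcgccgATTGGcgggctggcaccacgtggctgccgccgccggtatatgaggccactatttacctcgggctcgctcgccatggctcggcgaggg
Hoxd3, chr3:80045876-80046175, plus strand: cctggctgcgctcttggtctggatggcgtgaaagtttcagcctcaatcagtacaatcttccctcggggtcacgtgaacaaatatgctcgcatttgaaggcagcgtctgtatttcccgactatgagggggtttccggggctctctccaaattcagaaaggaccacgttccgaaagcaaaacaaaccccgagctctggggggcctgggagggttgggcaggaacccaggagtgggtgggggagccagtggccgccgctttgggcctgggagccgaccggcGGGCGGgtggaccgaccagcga
Hoxd1 held GGGCGG at -134 and on the reverse strand at -167, and CCAAT on the reverse strand at -37. Hoxd3 held GGGCGG at 29 bases after the start, and the other motifs searched had no match in its window. The windows contained 30 and 19 CG dinucleotides, above the median of 7 over all promoters.

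The rises were unequal along the clusters. From T2 to T4 the 6 anterior genes had a median difference of 1.92, the 13 central genes 0.62 and the 12 posterior genes 0.80, and centred on the receptor genes these medians were 0.95, -0.35 and -0.17. The anterior genes thus kept their direction under this centring, other than Hoxa2 (-0.22), and the medians of the other classes did not. Some central and posterior genes also kept it, Hoxb4 and Hoxa13 among them. Of all 31 Hox genes, 12 were higher and 19 lower at T4 when centred. All 6 anterior genes rose, 7 of 13 central genes and 11 of 12 posterior genes, where 27.2% of all probe sets rose. From T3 to T4 the counts were 5 of 6, 2 of 13 and 4 of 12, where 16.5% of all probe sets rose. The 2 of 13 central genes were near that share. Centred, the counts were 3, 0 and 0, with falls in 3 central genes and 1 posterior gene. The shares of all probe sets under centring are given above. By cluster, 5 of 8 rose in A, 9 of 10 in B, 4 of 7 in C and 6 of 6 in D from T2 to T4, and centred these counts were 0, 2, 0 and 2. These groups of genes are a description, since genes of a cluster are not replicates and the difference between classes was not tested.

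Other genes in the F test's leading 12 rose to T4 on the deposited values and lost the call when arrays were centred on the receptor genes. Hoxb3, a hindbrain and neck gene, read 4.82, 4.90 and 4.88 at T2 and 6.52, 5.69 and 6.31 at T4, a difference of 1.30 (SE 0.21) that was 0.34 and not called when centred on the receptor genes. Hoxb4, known from blood stem cells, read 4.14, 4.55 and 4.60 at T2, 5.13, 5.56 and 4.88 at T3, and 6.20, 5.57 and 5.20 at T4, a difference from T2 of 1.22 that was 0.25 centred. Their adult and latter-stage arrays did not overlap. Hoxb9 read 4.64, 4.57 and 4.50 at T2 and 5.86, 5.12 and 6.06 at T4 (1.11, and 0.14 centred). Hoxb6 read 4.61, 5.02 and 4.89 at T2 and 5.83, 5.52 and 5.80 at T4 (0.88, and -0.09 centred). Hoxc9 read 5.95, 5.50 and 6.00 at T2 and 7.36, 6.85 and 6.60 at T4 (1.12, and 0.15 centred). Of the 24 genes that rose, 20 were not called once arrays were centred on olfactory receptors, and 12 then had a lower mean at T4.

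**Figure D5:**
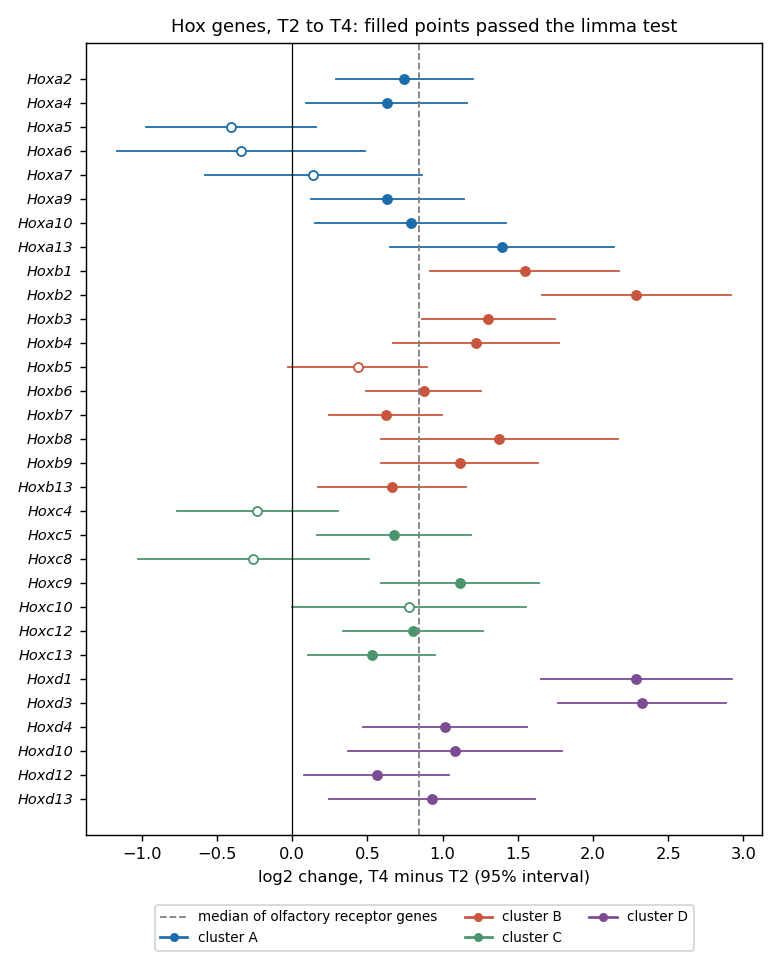
Log2 difference from T2 to T4 for each of 31 Hox genes with its 95% interval, coloured by cluster, filled where limma called it; the dashed line is the median of olfactory receptor genes. Hoxd3, Hoxb2 and Hoxd1 lie at 2.33, 2.29 and 2.29, far right of the receptor median of 0.84. Hoxa5, Hoxa6, Hoxa7, Hoxc4 and Hoxc8 lie farthest left of it. The Hox median of 0.79 is also below the receptor median, so other genes lie left of it too.

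From T2 to T4, Hoxa5 (-0.41), Hoxa6 (-0.34), Hoxa7 (0.14), Hoxc4 (-0.23) and Hoxc8 (-0.26) were not called on the deposited values, and all 5 fell when arrays were centred, by 1.38, 1.31, 0.83, 1.20 and 1.23 on the log2 scale. Under that centring 58.9% of all probe sets fell and the median of all probe sets was -0.90, so Hoxa7 did not fall by more than that median and such falls were common on the array. Hoxa5 read 5.44, 4.58 and 4.64 at T4, which overlapped its adult arrays. Hoxc4 read 4.92, 5.25 and 4.45 at T4, also overlapping the adult arrays. Hoxa6 read 5.23, 3.91 and 5.65 at T3 and 5.19, 4.95 and 5.53 at T4. All 5 genes are central ones, and Hoxa5 to Hoxa7 are adjacent in cluster A.

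The deposited values carry no detection call, so the 95th percentile of olfactory receptor genes on each array served as a guide to what stood above background. In all 3 arrays of a stage, 17 of 31 Hox genes exceeded it in newborn, 14 in youth and 9 in adult cartilage, and 4 did so at each of T3 and T4. Hoxb1, Hoxc9 and Hoxd3 were among the 4 at both stages, with Hoxa7 at T3 and Hoxb2 at T4. Hoxd1 exceeded it in 2 of 3 arrays at T4 and in none at T0 to T3. For 8 of 31 genes no array exceeded it. At T4 the guide itself was 5.88 to 6.70, against 4.80 to 4.92 at T2.

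Marker genes also moved between T2 and T4, where 27.2% of all probe sets rose and 29.4% fell. Of 11 cartilage markers 9 fell (median -3.06), with mean levels of 8.55 to 9.14 at T2 and 6.15 to 6.96 at T4. Of 9 blood and marrow markers 6 fell, with 8.69 to 8.84 at T2 and 5.89 to 7.69 at T4. Of 11 tendon, ligament and synovial fibroblast markers 6 fell and 1 rose, and of 8 bone markers 5 fell and 1 rose. The part of these shifts and of the narrower spread of the T4 arrays in the Hox changes was not tested.

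Among the chromatin regulators, 14 of 24 Polycomb genes and 10 of 10 Trithorax and demethylase genes fell from T2 to T4 and none rose. Their medians were -0.74 and -1.45, and 29.4% of all probe sets fell in this comparison. Mtf2, a Polycomb complex 2 partner, fell by 2.56 (SE 0.32), and Ezh1 fell by 2.03 (SE 0.26). Of 30 limb patterning genes 14 rose and 5 fell. Msx1, a homeobox gene of limb mesenchyme, rose by 1.67 (SE 0.22), while Prrx1 fell by 1.86 (SE 0.31). Pitx1 read 4.88, 4.52 and 4.91 at T2 and 6.33, 6.08 and 6.34 at T4, a rise of 1.48 (SE 0.32). Of 8 TALE cofactors 3 rose and 3 fell, with Pbx3 falling by 1.97 (SE 0.26) and Pknox2 rising by 0.91 (SE 0.23). Of 18 retinoic acid genes 4 rose and 4 fell, and of 16 flanking and ParaHox genes 8 rose and 6 fell. Centred on the receptor genes, no rise was left among the TALE or retinoic acid genes (5 and 12 fell), 2 rose and 9 fell among the limb genes, and 2 rose and 8 fell among the flanking genes. The Polycomb and Trithorax falls then numbered 22 and 10, under a centring that also made falls common over the whole array.

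Mir196b had the clearest late change among the microRNA genes. It read 3.92, 4.25 and 4.25 at T2, 4.44, 4.70 and 4.51 at T3, and 6.75, 6.11 and 7.23 at T4. No T4 array overlapped any earlier array. The rise from T2 to T4 was 2.56 (SE 0.24, adjusted p = 1.23e-05 by limma), and 1.59 with arrays centred on olfactory receptor genes (adjusted p = 0.000217 by limma). Its neighbours on either side did not match it in size: Hoxa9 differed by 0.63 (SE 0.24, and -0.34 centred) and Hoxa10 by 0.79 (SE 0.30, and -0.18 centred) over the same stages. Mir196a, with the same seed, read 3.48, 3.27 and 3.63 at T4 (difference from T2 0.23, SE 0.23, not called), and Mir196c had a difference of -0.18 (SE 0.21), also not called. Centred on the receptor genes both fell, by 0.74 and 1.15 on the log2 scale, though the Mir196a values were again below the guide to background.

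The miR-10 genes lie next to Hoxb4 and in the Hoxd4 region, and both read near background. Mir10a rose from T2 to T4 by 1.17 (SE 0.36, adjusted p = 0.0124 by limma) and Mir10b by 1.04 (SE 0.32, adjusted p = 0.0131 by limma), but centred on the receptor genes the differences were 0.20 and 0.07 and were not called. Mir10a read 2.70, 4.10 and 2.27 at T4 and Mir10b 3.99, 2.53 and 2.56, so in each a single array stood above the other two. All 6 values were below the guide to background of 5.88 to 6.70. The receptor medians of these arrays were 4.38, 3.57 and 3.70. Only the Mir10a value of 4.10, in replicate 2, exceeded the receptor median of its own array. Without replicate 2 of T4 the difference of Mir10a was 0.63, and without replicate 1 of T4 that of Mir10b was 0.56; neither gene was called with scaled arrays. Mir615, in cluster C, had a difference of 0.34 (SE 0.28) that was not called, and fell by 0.63 when centred. Hoxa11-as, the antisense transcript of the Hoxa11 locus, rose by 0.63 (SE 0.22, adjusted p = 0.0264 by limma) and had a difference of -0.34 that was not called when centred.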

How the data were processed

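The authors deposited log2 signals per probe set, summarised with RMA per the submitters' processing notes and the labels. Their software, library file and genome build were not given in the sources used here. No probe set was left out and nothing was renormalized before the main comparisons. Gene names came from the platform annotation, used where it gave a single symbol (18511 probe sets). Of 31 Hox genes, 28 matched RefSeq by Entrez ID and 3 (Hoxa2, Hoxa4, Hoxa10) by symbol; older names overlap there, as RefSeq lists Hoxa10 as an older name of Hoxa11. In RefSeq 9 of 31 overlap another gene, such as Hoxa4, Hoxa5 and Hoxa6 with Hoxa3, so their signals may be shared.

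Stage means were fitted with limma 3.58.1 in R 4.3.3 (lmFit, eBayes) over all 15 arrays. The 6 comparisons and an F test were adjusted by Benjamini-Hochberg over 36685 probe sets each; calls are adjusted p under 0.05, and intervals are 95%. The script was tested on simulated data. The number of arrays limits precision. The p-values measure the spread between arrays; the labels call them biological replicates. Arrays were checked for duplicates, and none was found. Alternatives were quantile normalization, scaling to a common range, array weights, filters, a replicate block, other sample sets, leaving out each array, and, chosen after seeing the data, centring on olfactory receptor genes. Values in every array are given for the genes with the 12 smallest F-test p values and for the up to 4 called genes with the largest rise or fall per comparison; others named follow fixed lists or were chosen after their values were seen. The members and lists were chosen with earlier results of these data known.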

Additional observations from a re-analysis of the deposited data

How the results depend on the processing

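Centring on olfactory receptor genes turned the median Hox difference from T2 to T4 from 0.79 to -0.18, that of Hoxb6 from 0.88 to -0.09 and that of Hoxa9 from 0.63 to -0.34. The number of Hox genes passing limma's F test was 23 as reported, 15 with arrays centred on olfactory receptor genes, 15 among the 17 members above the median level, 8 without the T4 arrays, and 18 to 23 on leaving out one array. As reported, 60.1% of all probe sets passed the F test. The shares called were 7.56% from T0 to T1, 0.891% from T1 to T2 and 0.15% from T2 to T3. They were 12.7% from T0 to T2, 56.5% from T2 to T4 and 42.2% from T3 to T4. These shares also moved with the setting, so the counts in this section do not measure Hox genes alone. Array weights gave 6 calls from T0 to T1 (1 rose, 5 fell), 11 from T0 to T2, 1 from T1 to T2 and 8 from T2 to T3. They also gave 23 from T2 to T4 (21 rose, and Hoxa5 and Hoxc4 fell) and 15 from T3 to T4 (12 rose, and Hoxa4, Hoxa7 and Hoxc4 fell). The weights of replicates 1 to 3 were 2.49, 0.29 and 0.33 at T3 and 0.10, 0.33 and 4.59 at T4. The weighted means of these stages thus rested mostly on a single array each. Fitting only the arrays compared gave 3 calls from T0 to T1, 7 from T0 to T2 and 3 from T3 to T4. From T0 to T2 the 2 calls became 1 with scaled arrays, 1 after quantile normalization, 3 with centring on olfactory receptor genes, 4 above the median level, 6 with probe sets averaged per gene and 6 without T4. From T2 to T4 the 24 calls became 13 with scaled arrays, 15 after quantile normalization, 13 above the median level and 9 with centring (4 rose, 5 fell). From T3 to T4 the 11 calls became 7 with centring (3 rose, 4 fell). The centring moved the median of all probe sets by more than 0.1, to -0.90 from T2 to T4 and -0.75 from T3 to T4, and scaling moved it to -0.26 and -0.22; changes under them are relative to that shift.

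Leaving out one array gave 0 to 0 calls from T0 to T1, 0 to 0 from T1 to T2, 1 to 5 from T0 to T2, 0 to 2 from T2 to T3, 16 to 24 from T2 to T4 and 8 to 14 from T3 to T4. Replicate numbers recur at each stage, but only 1 of 30 same-number pairs had deviations correlated over 0.1, so they do not pair the samples. A replicate block gave 19 genes in the F test, 2 calls from T0 to T2, 21 from T2 to T4, 12 from T3 to T4 and 0 in the other steps. Signals near the level of olfactory receptor genes limit what can be said of single Hox genes at T3 and T4.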
